A study of Mus musculus with 49 samples.

Results

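The homing and adhesion receptors described here are 6 genes: the chemokine receptor genes Cxcr4, Cxcr5, Ccr6 and Ccr7, the integrin chain gene Itgb7 and the adhesion molecule gene Icam1. Every probe set that matched 1 of these genes and no other was taken, whatever its signal. This gave 6 of the 9977 probe sets of the U74Av2 arrays and 7 of the 12588 of the U74A arrays, where Itgb7 had a second probe set. No filter on low signal was applied, and each member was tested in each comparison.

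Lymphocytes find their place in marrow, blood and lymphoid organs by chemokine receptors, which steer them along gradients of chemokines, and by integrins and their ligands, which hold them to other cells and to vessel walls. CXCR4, the receptor for CXCL12, is known for keeping B cell precursors close to marrow stroma, and CXCR5, the receptor for CXCL13, for bringing B cells into follicles. CCR7 responds to CCL19 and CCL21 of the T cell zone, CCR6 to CCL20, β7 integrin pairs with α4 or αE chains and serves homing to the gut, and ICAM-1 is the ligand of the integrin LFA-1.

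The study asked how the signal that immature B cells receive from surface IgM bears on gene expression, and it took surface IgM away by gene deletion or blocked tyrosine kinases with herbimycin A. Arrays were hybridized with RNA of sorted B lineage cells of mice, 37 arrays of 10 groups on U74Av2 and 12 arrays of 4 groups on U74A.

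The deletion experiment had 3 groups of 4 arrays, all grown from marrow in IL-7 and then kept for 2 d with IFN-αβ and without IL-7. Ctrl-Mhi cells were IgM-high cells of B1-8f/3-83κ mice, which carry a knock-in heavy chain flanked by loxP sites and a knock-in light chain. Cre-Mhi and Cre-Mlo cells came from B1-8f/3-83κ/Mx-Cre mice, whose Cre is driven by an IFN-inducible promoter, and were sorted as IgM high and as having lost IgM. The heavy chain gene of some Cre-Mhi cells was already deleted when they were sorted. B6-M- cells (n = 3) were B220+ IgM-negative cells from IL-7 cultures of C57BL/6 marrow, with no transgene and no IFN. FxD pre-B cells (B220+CD43-IgM-) and FxE immature B cells (B220+IgM+IgD-), 3 arrays each, were sorted from Balb/c marrow without culture, and their RNA was amplified in 2 rounds.

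Herbimycin A was given to 2 kinds of cells. FxE Ctrl (n = 4) and FxE HA (n = 6) were B220+IgM+IgD- marrow cells of Bcl-2 transgenic mice kept in medium or with herbimycin A for 24 or 48 h, and the Bcl-2 transgene was shared by both groups. GFPneg and GFPpos (3 arrays each) came from IL-7 cultures of HEL-Ig/Rag2-GFP marrow, which carry a receptor for hen egg lysozyme (HEL) and a GFP reporter of Rag2. They were kept for 1 d in medium and sorted as IgM+GFP-, or with herbimycin A and sorted as IgM+GFP+, so that drug and reporter cannot be told apart in that pair.

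On U74A, HEL-Mhi (n = 3) were IgM-high cells of HEL-Ig IL-7 cultures. HEL 48 h and Ctrl 48 h (3 each) were HEL-Ig/Rag2-GFP cells after 5 d with 16 ng/ml IL-7 and 48 h with or without 1 µg/ml HEL, sorted as B220+IgMa-high GFP+ and as GFP-, so that antigen and reporter cannot be told apart either. HEL-Mlo (n = 3) were sorted IgMa-low IgD- cells of HEL-Ig IL-7 cultures.

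Values are signals, the brightness of a probe set on the linear scale, scaled by the authors to 1500 units for each array but those of the last 3 groups. The number of arrays limits the precision, and median signals of the U74Av2 arrays ran from 345.9 to 544 units. The methods give 4 independent sorts for the deletion groups and 2 or 3 for the others. FxE Ctrl has 4 arrays and FxE HA 6, more than that, and whether each array is a sort of its own is not stated. P-values therefore measure the spread between arrays, some of which may be technical. In sorted bulk cells, fewer cells of a type and less RNA per cell cannot be told apart.

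The labels were checked against defining genes. The probe set matching Ighv1-54, of the heavy chain variable family, had signals of 43672 to 59359 in Ctrl-Mhi, 24518 to 34565 in Cre-Mhi and 898 to 1262 in Cre-Mlo cells. All 16 myeloid markers were measured, and their summed signal ran from 39353 to 81459 in FxD, from 70943 to 286553 in FxE, from 33286 to 134166 in FxE Ctrl and from 32809 to 140973 in FxE HA cells, against 4127 to 8909 in the other 6 U74Av2 groups. For the 6 erythroid markers measured of 9, the sums were 65690 to 126426 in FxD and 119930 to 165254 in FxE cells, against 9093 to 22075 in the cultured groups other than FxE HA, where they were 18053 to 50024. The 8 T cell markers measured of 10 summed to 493.3 to 3457 on all U74Av2 arrays.

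The stretches of 250 bases before the annotated start of transcription are shown for the members that fell together, Itgb7 and Icam1, and for Ccr6, the member with a motif match (RefSeq, GRCm38.p6; table entries were found for Cxcr4, Icam1, Itgb7 and Ccr6). Each is written 5′ to 3′ on the gene's strand. Capitals mark the octamer motif.
Itgb7, chr15:102231936-102232185, minus strand: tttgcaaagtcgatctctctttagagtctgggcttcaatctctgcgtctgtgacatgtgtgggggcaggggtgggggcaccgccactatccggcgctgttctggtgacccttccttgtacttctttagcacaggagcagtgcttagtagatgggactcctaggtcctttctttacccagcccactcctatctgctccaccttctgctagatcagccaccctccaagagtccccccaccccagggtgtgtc
Icam1, chr9:21015690-21015939, plus strand: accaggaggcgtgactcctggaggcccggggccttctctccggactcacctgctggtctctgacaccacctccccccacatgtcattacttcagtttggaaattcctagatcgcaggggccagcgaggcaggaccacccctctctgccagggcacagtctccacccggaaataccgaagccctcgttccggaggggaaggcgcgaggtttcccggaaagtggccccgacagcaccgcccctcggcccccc
Ccr6, chr17:8235793-8236042, plus strand: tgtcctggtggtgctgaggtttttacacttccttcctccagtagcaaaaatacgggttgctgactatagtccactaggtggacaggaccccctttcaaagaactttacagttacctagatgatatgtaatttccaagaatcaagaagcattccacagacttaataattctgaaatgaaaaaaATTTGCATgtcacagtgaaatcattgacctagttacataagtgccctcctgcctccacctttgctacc
Both strands were searched for the letters of a NF-kB motif (GGG, any 2 bases, then TTTCC), a FoxO motif (GTAAACA), the octamer (ATGCAAAT) and a PU.1 motif (GAGGAAGT). These are held by 1.41%, 3.17%, 1.60% and 2.44% of the 32851 mouse promoters of the same length. The only match was the octamer on the opposite strand in the Ccr6 promoter shown, 68 bases before the start. The second annotated Ccr6 promoter and that of Cxcr4 held none of them. A match describes letters and not a bound site, and a stretch without these exact letters may still hold a variant of a motif.

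Over the 10 U74Av2 groups, mean signals of a member spanned between 3.35-fold for Ccr7 and 20.4-fold for Cxcr5. Cxcr4 was highest in Cre-Mlo cells, at 12048 ± 789 (SD, n = 4), above every array of the next group, GFPpos, at 7571 ± 2698 (n = 3). It was lowest in uncultured FxE cells, at 780 ± 236 (n = 3), below every array of the other groups. Between them, Cre-Mhi, Ctrl-Mhi, GFPneg, B6-M-, FxE Ctrl, FxD and FxE HA followed each other from 5175 to 3143, and each of these neighbours overlapped with the next.

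Cxcr5 ran the other way at its extremes. It was highest in FxE cells, at 2604 ± 329, and lowest in FxD cells, at 127 ± 129, with Cre-Mlo cells just above them at 257 ± 126. FxE, the 6 groups from FxE Ctrl to GFPneg, GFPpos and the pair of Cre-Mlo and FxD formed 4 steps with no overlap between neighbouring steps. Ccr6 had no such step: from FxE HA at 1387 ± 1228 (n = 6) down to B6-M- at 74.9 ± 7.61 (n = 3), each group overlapped with the next in the order.

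Ccr7 was highest in Cre-Mlo cells, at 2621 ± 181, and GFPpos cells, at 2571 ± 188, and lowest in the uncultured FxE cells, at 890 ± 86.7, and FxD cells, at 783 ± 460. The step between GFPneg and FxE was the only one between neighbours in its order without overlap. Arrays of other groups crossed it. FxD array 1, at 1196.4, was above GFPneg arrays 1 and 2, at 1072.1 and 1175.5. FxE HA array 5, at 887.3, was below FxE array 2, at 987.5. Itgb7 was highest in the groups kept in medium, FxE Ctrl at 4318 ± 531 and GFPneg at 4317 ± 106. The next means were those of Cre-Mhi cells, at 2310 ± 550, and Ctrl-Mhi cells, at 2202 ± 644. The lowest arrays of Cre-Mhi and Ctrl-Mhi, at 1578 and 1599.6, were below the highest of FxE HA, at 1770.5, and of GFPpos, at 1654.2. The means of all other groups lay from 1397 in FxE down to 808 in FxD, with arrays overlapping from one group to the next.

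The group means of Icam1 fell into 3 levels. By array the upper levels overlapped, since Cre-Mhi array 4, at 933.2, was below B6-M- array 2, at 955.2. Means were 1063 to 1312 in Ctrl-Mhi, Cre-Mhi, GFPneg and GFPpos, 850.1 and 701 in B6-M- and Cre-Mlo, and 253 to 442 in the 4 groups of cells sorted from marrow as FxD or FxE, cultured or not. Those last groups are also those with the high myeloid sums given above, and the part of other cells in their Icam1 signal was not tested.

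**Figure D1:**
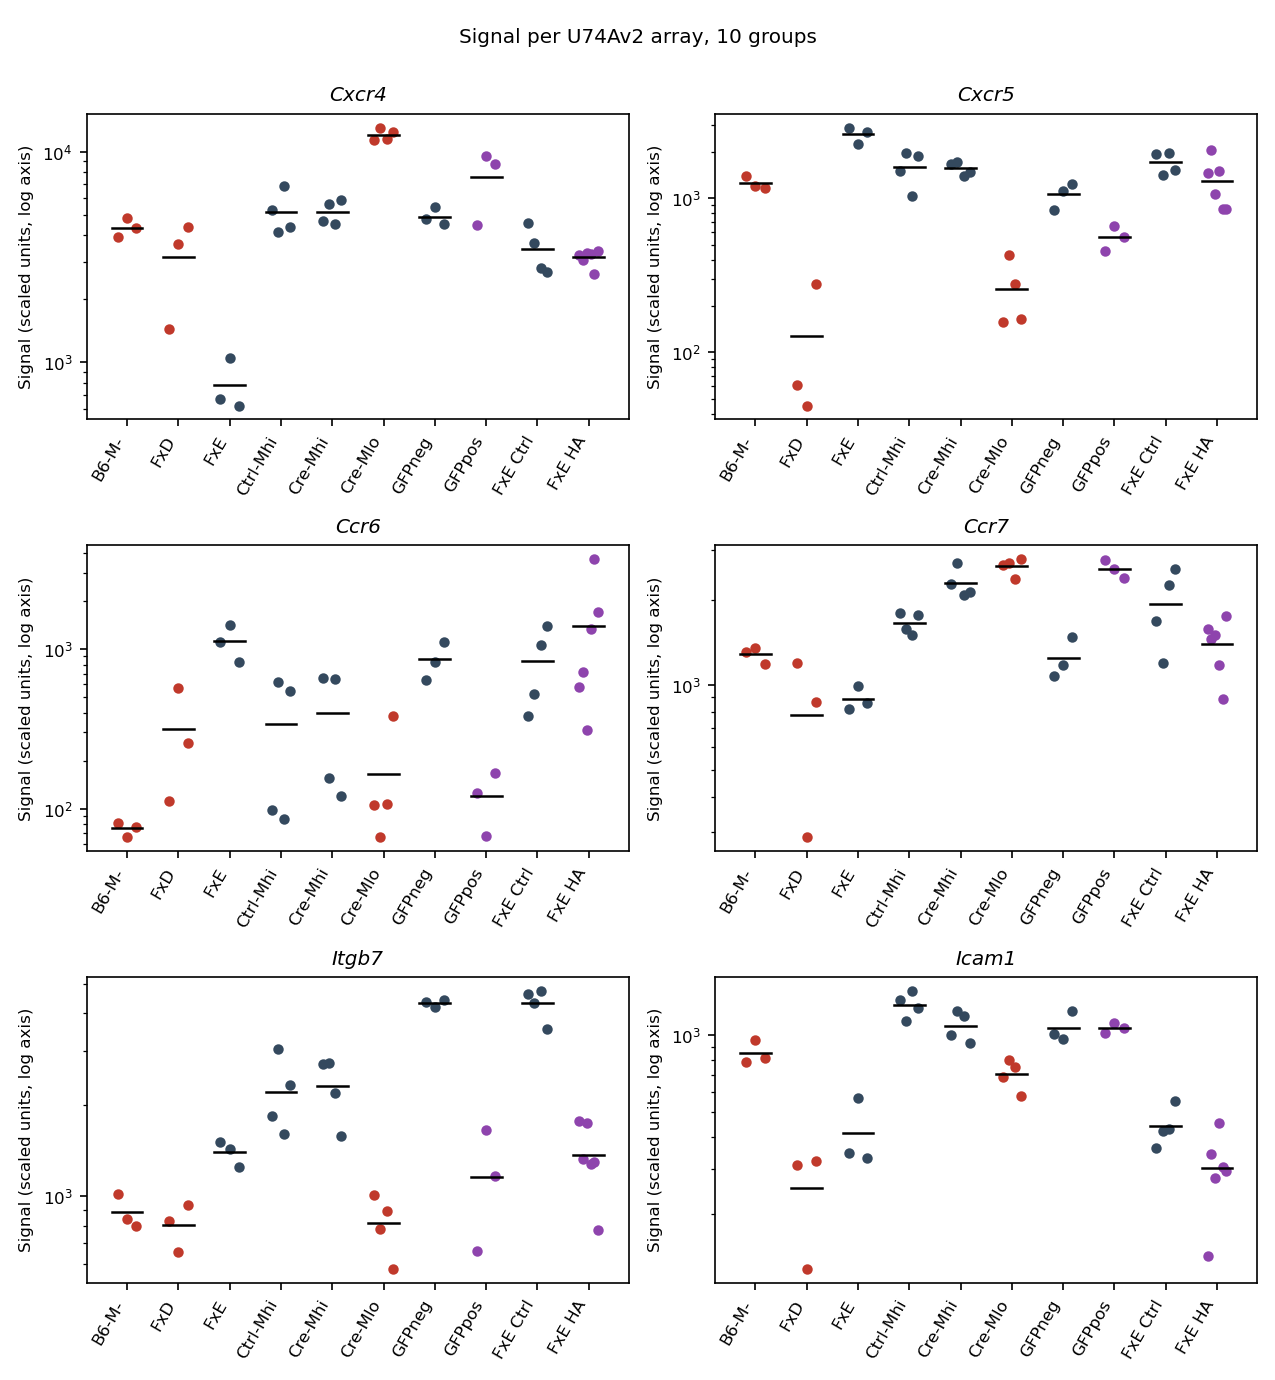
Signal of each member on each U74Av2 array (vertical axis, scaled units, log axis) for the 10 groups (horizontal axis), with a point per array and a line at the group mean; red marks IgM-negative or pre-B groups, purple herbimycin A, dark blue the other groups. Cre-Mlo stands alone at the top for Cxcr4 and next to FxD at the bottom for Cxcr5, and Itgb7 is highest in the groups kept in medium, GFPneg and FxE Ctrl.

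Removing IgM from immature B cells was accompanied by changes in 5 of the 6 members. In Cre-Mlo against Ctrl-Mhi cells, Cxcr4 and Ccr7 rose, while Cxcr5, Itgb7 and Icam1 fell. Over all probe sets, 8.33% were called in this comparison (limma, adjusted p under 0.05), and the median log2 difference of the members was -0.87, against -0.04 over all. The groups did not overlap for any of these 5, as for 16.7% of all probe sets. The study had already reported lower Cxcr5, Itgb7 and Icam1 in Cre-Mlo than in Ctrl-Mhi or Cre-Mhi cells from these arrays. By flow cytometry, at later times of IFN culture, it also reported lower surface β7 integrin and ICAM-1 protein in Cre-Mlo cells. The members were chosen with earlier results known. The counts of members called in these comparisons are therefore no test of homing receptors as a class.

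Cxcr5, the receptor for the follicular chemokine, had signals of 1499.9, 1967.3, 1032.1 and 1874.9 in Ctrl-Mhi cells and of 158.5, 428.2, 277.8 and 164.6 in Cre-Mlo cells. Each deleted array lay far below each control array. The log2 difference was -2.71 (SE 0.32, 95% CI -3.41 to -2.01, adjusted p = 0.000402), a 6.55-fold lower signal.

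Cxcr4, the receptor for CXCL12, measured 5256.4, 4140.7, 6899.9 and 4401.7 in Ctrl-Mhi cells and 11383.8, 13023.8, 11431.9 and 12353 in Cre-Mlo cells. The highest control array was well short of the lowest deleted one. It rose by 1.25 (SE 0.17, 95% CI 0.87 to 1.62, adjusted p = 0.00105), or 2.37-fold. Ccr7 went from 1794.2, 1572, 1492.2 and 1769.6 to 2642.4, 2702.5, 2362.6 and 2777.8. Its rise was smaller, 1.58-fold (log2 0.66, SE 0.12, 95% CI 0.39 to 0.93, adjusted p = 0.00706), and its adjusted p was 0.187 when all 37 arrays were fitted together.

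Itgb7 gave 1833.5, 3057.4, 1599.6 and 2315.8 in Ctrl-Mhi cells and 1008.7, 782.3, 893.2 and 576.3 in Cre-Mlo cells. It fell 2.67-fold (log2 -1.42, SE 0.26, 95% CI -1.99 to -0.85, adjusted p = 0.00657). Icam1, with 1362.4, 1128.3, 1479.7 and 1277.1 in control and 684.5, 797.3, 746.8 and 576 in deleted cells, was lower by 1.88-fold (log2 -0.91, SE 0.15, 95% CI -1.24 to -0.58, adjusted p = 0.00341). For both genes every deleted array was below every control array. Ccr6 was the exception: its 4 control arrays split into 97.6 and 86 against 619.9 and 544.8, the deleted arrays gave 105, 65.9, 107.3 and 378.5, and the difference of -0.83 (95% CI -2.73 to 1.07, adjusted p = 0.657) was within that spread.

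Other groups of genes moved in the same comparison. Markers of recirculating mature B cells, 5 measured of 6, summed to 40830 to 57358 in Ctrl-Mhi and 3774 to 5954 in Cre-Mlo cells. The 8 recombination and pro-B markers, among them Rag1, Il7r and Vpreb1, summed to 9120.5 to 14273 and 61404 to 70567. Of the 5, 4 were called lower, and of the 8, 6 were called higher (limma). Such sums are weighted towards the brightest genes. The probe sets called for Cd22, Fcer2a and Cr2 averaged only 5610, 1045 and 135 in Ctrl-Mhi cells. The part of both lists in the members' differences was not tested. The calls of the 5 members held when any 1 of the 12 arrays of the fit was left out. By the methods' unequal-variance test on linear signals, with Benjamini-Hochberg adjustment, those of Cxcr5 (adjusted p = 0.0826) and Itgb7 (adjusted p = 0.157) were lost.

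Cre-Mhi cells have the same genotype as Cre-Mlo cells and were grown in the same way, so the comparison between them leaves out the Cre allele. Against Cre-Mhi, 4 of the 6 members were called in Cre-Mlo cells (6.08% of all probe sets), Cxcr4 upward and Cxcr5, Itgb7 and Icam1 downward. None of these 4 overlapped between the groups, as was the case for 13.9% of all probe sets. Both comparisons share the Cre-Mlo arrays and are not independent.

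The signals of Cxcr5 in Cre-Mhi cells were 1672.9, 1710.8, 1388.4 and 1488.7, and the log2 difference of Cre-Mlo cells from them was -2.72 (SE 0.32, adjusted p = 0.00048). Cxcr4, at 4676.1, 5613.5, 4526.1 and 5884.2, differed by 1.23 (SE 0.17, adjusted p = 0.00157), and Itgb7, at 2714.9, 2751.7, 2195.2 and 1578, by -1.50 (SE 0.26, adjusted p = 0.00578). For these 3 genes, each Cre-Mlo array was beyond each Cre-Mhi array. Icam1, at 997.9, 1236.3, 1181.1 and 933.2, was lower by 0.63 on the log2 scale in Cre-Mlo cells (-0.63, SE 0.15, adjusted p = 0.0311), with adjusted p = 0.0499 with the replicate number as a block. That call was lost without Cre-Mhi array 1, 2 or 3 or Cre-Mlo array 1, 3 or 4, with adjusted p from 0.0297 to 0.0926 over the arrays left out, and with all 37 arrays in the fit (adjusted p = 0.266).

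Ccr7 was not called here. Its signals in Cre-Mhi cells were 2273.9, 2688.5, 2077 and 2127.8, which lay above all Ctrl-Mhi arrays and overlapped with Cre-Mlo cells, although the Cre-Mlo sort was the higher in all 4 pairs of the same number. The difference between Cre-Mlo and Cre-Mhi cells was 0.20 (SE 0.12, adjusted p = 0.464, and 0.482 with the replicate number as a block), and that between Cre-Mhi and Ctrl-Mhi cells was 0.46 (SE 0.12, 95% CI 0.19 to 0.74, adjusted p = 0.552). Between Cre-Mhi and Ctrl-Mhi cells, none of the 6 members and 0.02% of all probe sets were called by limma (2 probe sets; 711 had an unadjusted p under 0.05, and the methods' test on linear signals called none of the members), and Ccr7 was the only member whose groups did not overlap (3.91% of all probe sets).

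**Figure D2:**
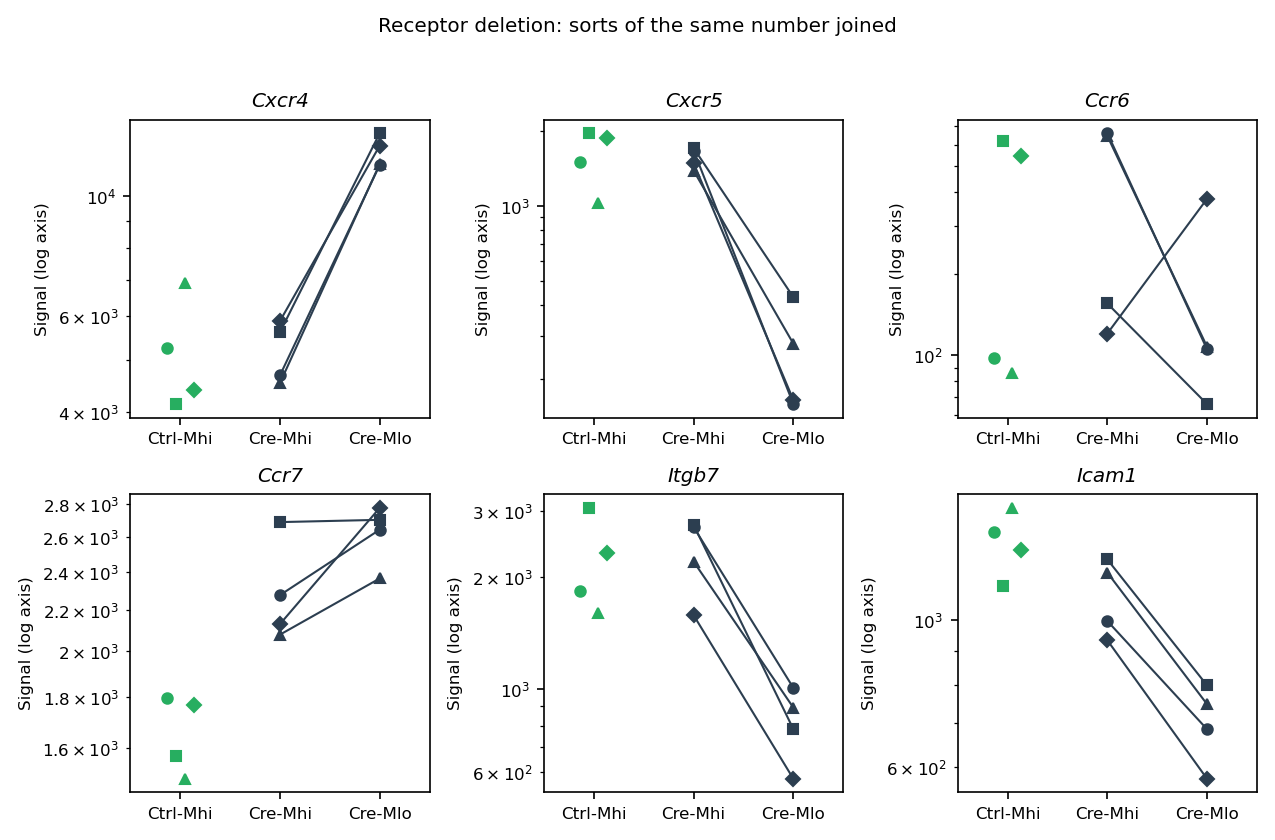
Signal (vertical axis, log axis) of the members in Ctrl-Mhi, Cre-Mhi and Cre-Mlo cells; each symbol is a replicate number, and lines join Cre-Mhi and Cre-Mlo sorts of the same number. All 4 joined pairs rise for Cxcr4 and Ccr7 and fall for Cxcr5, Itgb7 and Icam1, while Ccr6 falls in 3 pairs and rises in 1.

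B6-M- cells were sorted for the absence of IgM. They differ from Ctrl-Mhi cells also in strain, transgenes, IFN and culture. Ctrl-Mhi cells were kept for 2 d more without IL-7, while B6-M- cells were sorted from the IL-7 culture. These differences cannot be told apart from the lack of IgM. Itgb7 and Icam1 were lower in them, 2 of the 6 members called beside 14.2% of all probe sets, and the Ctrl-Mhi arrays are those already used above. The members' median log2 difference was -0.50, against -0.13 over all probe sets.

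Itgb7 in B6-M- cells was 1016.5, 843.4 and 800.1, below every Ctrl-Mhi array (log2 -1.28, SE 0.25, 95% CI -1.87 to -0.68, adjusted p = 0.0187). Icam1 was 786, 955.2 and 809.1, again with no overlap (log2 -0.62, SE 0.16, 95% CI -0.998 to -0.25, adjusted p = 0.0432). These calls rest on few arrays. Itgb7 was no longer called without B6-M- array 2 or 3 or Ctrl-Mhi array 4 (adjusted p 0.0221 to 0.0726 over the 7 arrays left out), and Icam1 was called only without Ctrl-Mhi array 2 (0.0451 to 0.12), and had adjusted p = 0.175 with all 37 arrays.

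Cxcr4 and Cxcr5, both called in Cre-Mlo cells, were not called in B6-M- cells. Cxcr4, at 3942.5, 4821 and 4320, differed from Ctrl-Mhi cells by -0.22 (adjusted p = 0.538), and Cxcr5, at 1402.5, 1209.5 and 1160.3, by -0.30 (adjusted p = 0.473). Both overlapped with the control arrays. The 5 mature B cell markers summed to 3118 to 4780 in B6-M- cells and the 8 recombination and pro-B markers to 102386 to 131328. The Ctrl-Mhi ranges are given above, and the part of both lists in the members' values was not tested. Ccr7, at 1307.3, 1346.2 and 1183.6, and Ccr6, at 81.3, 66.5 and 77, lay below all control arrays, as 29.3% of all probe sets lay on one side of them, without passing the test (log2 -0.37, adjusted p = 0.133, and log2 -1.63, adjusted p = 0.229). With signals raised to at least 100, Ccr7 was called (adjusted p = 0.0414).

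FxD and FxE cells give the step from pre-B to immature B cell in marrow, without culture. Cxcr5 was the 1 member called of 6 (3% of all probe sets called), lower in the pre-B cells. Signals were 61.1, 45.1 and 275.9 in FxD cells and 2882.5, 2241.4 and 2686.6 in FxE cells. No FxD array came near an FxE array. The difference was -4.83 (SE 0.69, 95% CI -6.50 to -3.16, adjusted p = 0.0237), or 28.4-fold, against 20.4-fold between the mean signals. The FxD signals are low, which leaves the size of the fold uncertain. The call held only without FxD array 3 (adjusted p 0.0322 to 0.126, log2 -5.62 to -4.32, over the 6 arrays left out).

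In 4 more members the FxD and FxE arrays did not overlap, as in 20.2% of all probe sets, but the difference did not pass the test. Cxcr4 was 1443.4, 3646.3 and 4403.2 in FxD and 666.2, 1051.5 and 622.1 in FxE cells (log2 1.91, SE 0.49, adjusted p = 0.128). With all 37 arrays in the fit it was called (adjusted p = 3.4e-05), and likewise among probe sets with a mean signal of at least 200 (adjusted p = 0.0428). Ccr6, at 111.1, 573.3 and 257.7 against 1110, 1411 and 835.4, differed by -2.11 (adjusted p = 0.178). Itgb7, at 828.4, 655.8 and 939.1 against 1512, 1434.6 and 1244.5, differed by -0.80 (adjusted p = 0.209). Icam1, at 311, 122.5 and 324.3 against 346.4, 566 and 331.3, also differed by -0.80 (adjusted p = 0.545). The closest Icam1 arrays of the groups were nearly equal, while those of Itgb7 were well apart. Ccr7, at 1196.4, 287.6 and 864.4 against 822.1, 987.5 and 859.5, overlapped (log2 -0.41, adjusted p = 0.824).

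These 2 groups hold the highest erythroid sums of all, and the myeloid sum in FxE cells reached 286553. The sum of the 7 B lineage markers measured of 9 was 48202 to 63332 in FxD and 85446 to 122073 in FxE cells, and Cd79a, a chain of the B cell receptor, was 6942 ± 1027 and 16460 ± 2842. The 5 mature B cell markers summed to 12079 to 15235 and 81215 to 87476, and the 8 recombination and pro-B markers to 34630 to 49392 and 2156 to 2881. The part of these differences in the members' values was not tested.

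Herbimycin A in cells with the HEL receptor went with a higher Ccr7 and a lower Ccr6. In GFPpos against GFPneg cells these 2 of the 6 members were called, beside 2.59% of all probe sets. Ccr7 was 2762.8, 2562.9 and 2386.6 in GFPpos and 1072.1, 1175.5 and 1470.9 in GFPneg cells. The groups were well apart, and it rose 2.09-fold (log2 1.06, SE 0.17, 95% CI 0.63 to 1.49, adjusted p = 0.0481). Ccr6, the receptor for CCL20, was 125.8, 67.1 and 166.5 against 643.7, 833.9 and 1108.8. The GFPpos signals are low, which leaves the size of the fold uncertain. It was 7.51-fold lower, with no overlap (log2 -2.91, SE 0.40, 95% CI -3.91 to -1.91, adjusted p = 0.0407). With 3 arrays a group, both calls were lost without any 1 of the 6 arrays, with adjusted p from 0.0919 to 0.154 for Ccr7 and from 0.0795 to 0.134 for Ccr6.

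Itgb7 and Cxcr5 also did not overlap between GFPpos and GFPneg cells, nor did 29.2% of all probe sets. For Itgb7, the signals were 661.9, 1654.2 and 1164 with the drug and 4344.6, 4200.3 and 4406.5 in medium, a 3.98-fold lower mean log2 signal (-1.99, SE 0.35, 95% CI -2.86 to -1.12) that missed the threshold (adjusted p = 0.0532). It passed with all 37 arrays (adjusted p = 2e-05) and among probe sets with a mean signal of at least 200 (adjusted p = 0.0191). Cxcr5 was 451.5, 658.1 and 563.2 against 843.6, 1112.1 and 1230.5 (log2 -0.93, SE 0.23, adjusted p = 0.0972, and 0.0439 with that filter).

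Cxcr4 was uneven in GFPpos cells, with 4486.8 on array 1 and 9492.7 and 8734.4 on the others, against 4789.5, 5444.4 and 4510 in GFPneg cells (log2 0.55, SE 0.32, adjusted p = 0.399). Icam1, at 1016.5, 1110 and 1063.9 with the drug and 1005.7, 960.1 and 1232.7 in medium, had an interval of -0.38 to 0.39 around a difference close to 0. The 5 mature B cell markers summed to 4063 to 16851 in GFPpos and 43705 to 51799 in GFPneg cells. The 8 recombination and pro-B markers summed to 66281 to 145932 and 10164 to 13843. The part of both lists in the members' values was not tested.

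In marrow cells with the Bcl-2 transgene, Itgb7 fell with herbimycin A, the 1 member called of 6 beside 3.37% of all probe sets. Itgb7 was 4643.1, 4333.5, 4731.1 and 3564.1 in FxE Ctrl cells, and ran from 773.8 through a median of 1312.3 to 1770.5 in the 6 FxE HA arrays. All drug arrays lay under all medium arrays, and 5.85% of all probe sets did not overlap. The difference, with hours as a factor, was -1.77 (SE 0.22, 95% CI -2.27 to -1.27, adjusted p = 0.00299), or 3.41-fold, and it stayed called without any 1 of the 10 arrays (adjusted p 0.00574 to 0.0185). On the arrays of 24 h alone it was -1.57 with adjusted p = 0.0544. Myeloid sums overlapped between FxE Ctrl and FxE HA, and the B lineage sum was 54346 to 79110 in FxE Ctrl and 28611 to 57732 in FxE HA cells. The 5 mature B cell markers, 4 of which fell, summed to 65657 to 77438 and 22555 to 27259. The 8 recombination and pro-B markers, 2 of which rose, summed to 3891 to 6145 and 17350 to 22644. The part of these marker lists in the fall of Itgb7 was not tested.

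The other 5 members overlapped between FxE HA and FxE Ctrl cells. Ccr6 was 383.2, 524.8, 1062.6 and 1399.1 in medium and ran from 311.6 through 1027.3 to 3658.5 with the drug (log2 0.75, SE 0.41, adjusted p = 0.444). By hours its means were 454 at 24 h and 1231 at 48 h in medium, and 736 and 2689 with the drug. In each treatment the mean was higher at the later time. Ccr7 was 1192.9 to 2558.2 in medium and 887.3 to 1755.2 with the drug (log2 -0.41, adjusted p = 0.557). Its means at 24 h were close, 1439 in medium and 1422 with the drug, and at 48 h they were 2405 and 1321. Cxcr5 was 1415.7 to 1959.2 and 854.4 to 2048.9 (log2 -0.53, adjusted p = 0.376). For Cxcr5 both drug arrays of 48 h, at 856.1 and 854.4, lay below all others of these groups. Icam1 was 361.4 to 553.9 and 137.6 to 455.6 (log2 -0.58, adjusted p = 0.443), and Cxcr4 was 2672.3 to 4602.8 and 2622.6 to 3380.7 (log2 -0.15, adjusted p = 0.76). The difference between the drug effects at 48 h and 24 h was called for no member and for 0% of all probe sets (limma; 478 probe sets had an unadjusted p under 0.05).

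The drug effects in both kinds of cells were compared directly. The effect in FxE HA minus that in GFPpos cells was 3.69 for Ccr6 (SE 0.64, 95% CI 2.30 to 5.08, adjusted p = 0.0232), the 1 member called of 6, beside 0.772% of all probe sets. This call was lost without FxE Ctrl array 1, 2 or 3 or GFPneg array 2 or 3 (adjusted p 0.0154 to 0.0613 over the 16 arrays left out). For Ccr7 it was -1.54 (SE 0.33, 95% CI -2.26 to -0.82, adjusted p = 0.0585, and 0.0287 with all 37 arrays). For Itgb7 the difference was 0.19, with an interval from -0.68 to 1.07 (adjusted p = 0.905). The pairs differ in strain, transgenes, culture, hours and the sort on GFP, which cannot be told apart here.

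**Figure D3:**
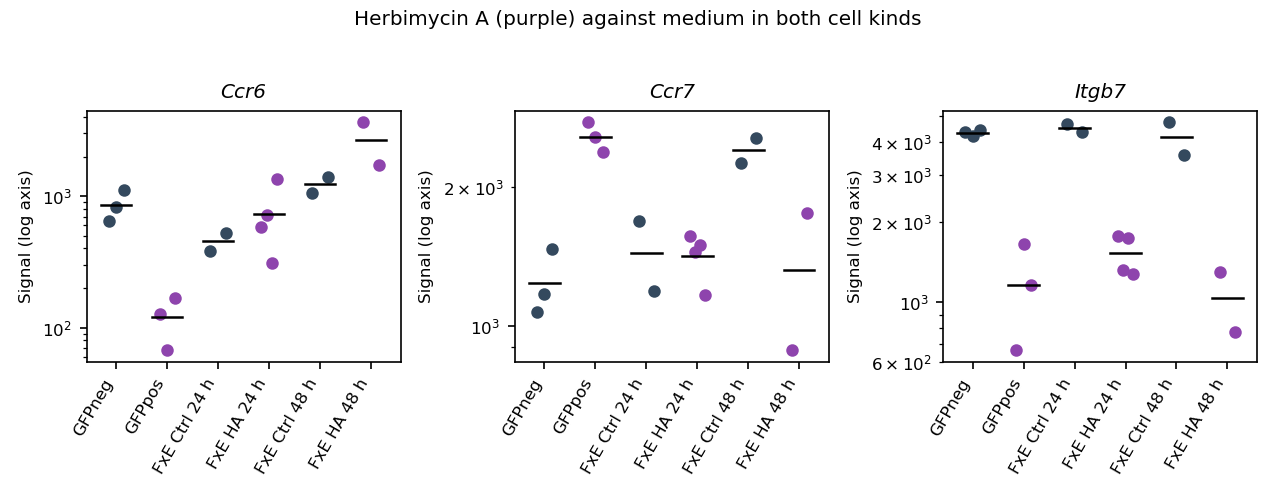
Signal (vertical axis, log axis) of Ccr6, Ccr7 and Itgb7 with herbimycin A (purple) and in medium (dark blue), a point per array and a line at each mean; FxE arrays are split by hours. Ccr6 is lower with the drug in the GFP-sorted cells and not in FxE cells, while Itgb7 lies between 661.9 and 1770.5 with the drug and between 3564.1 and 4731.1 in medium.

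In the antigen experiment on U74A, none of the 7 member probe sets passed the test (limma; 0.23% of all probe sets were called). Of the 7, 4 had groups that did not overlap, beside 20.6% of all probe sets: Cxcr4 was higher with HEL, and Cxcr5, Ccr6 and 1 of the Itgb7 probe sets were lower. The unadjusted p of these 4 was below 0.05, as it was for 1455 of the 12588 probe sets, and they are given as values.

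Cxcr4 was 11833.36, 10713.2 and 11228.4 with HEL and 5804.85, 4922.81 and 4802.89 without it. Every HEL array was above every control array, and the log2 difference was 1.12 (SE 0.19, 95% CI 0.65 to 1.60, adjusted p = 0.109, and 0.0393 with signals raised to at least 100). On the scan day shared by 2 arrays of each group it was 1.07, and on the day with 1 array of each it was 1.23. Cxcr5 was 548.07, 888.81 and 1151.66 against 2409.86, 2559.24 and 2085.05 (log2 -1.51, SE 0.32, 95% CI -2.28 to -0.73, adjusted p = 0.162), with -1.83 and -0.86 on those days. Ccr6, at 889.29, 281.13 and 165.93 against 1983.66, 1196.16 and 996.08, differed by -1.94 (adjusted p = 0.344), with -1.62 and -2.59 by day.

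The Itgb7 probe sets of this array disagreed. The probe set also present on U74Av2 gave 1256.61, 1528 and 618.6 with HEL and 12439.78, 8965.19 and 2699.27 without (log2 -2.66, SE 0.65, adjusted p = 0.223), with -2.93 and -2.13 by scan day. Array 3 was the lowest of its group on both sides. The second probe set, of a kind that can share probes with related transcripts, gave 1579.53, 1254.03 and 730.5 against 1299.99, 1340.26 and 1509.89 (log2 -0.29, SE 0.33, adjusted p = 0.747), and 0.09 and -1.05 by day.

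Ccr7 and Icam1 did not move one way in all pairs of arrays. Ccr7 was 1179.03, 4511.25 and 3328.21 with HEL and 2702.31, 3166.6 and 1703.37 without it (log2 0.09, adjusted p = 0.954). It differed by -0.34 on the first day and by 0.97 on the other. Icam1 was 842.03, 1820.48 and 1991.35 against 1977.67, 1868.12 and 1827.37 (log2 -0.38, adjusted p = 0.701), with -0.63 and 0.12. In both genes the HEL array 1 was the low one. Myeloid sums were 8460 to 14488 with HEL and 10078 to 13143 without. The 5 mature B cell markers summed to 19449 to 27467 and 79108 to 108464, and the 8 recombination and pro-B markers to 35578 to 40327 and 3271 to 9707. Of these marker lists 1 gene, Ms4a1, fell with HEL (log2 -2.60, adjusted p = 0.038) and Rag1 (log2 4.77, adjusted p = 0.0312) and Rag2 (log2 5.04, adjusted p = 0.0312) rose, and the part of these genes in the members' values was not tested.

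**Figure D4:**
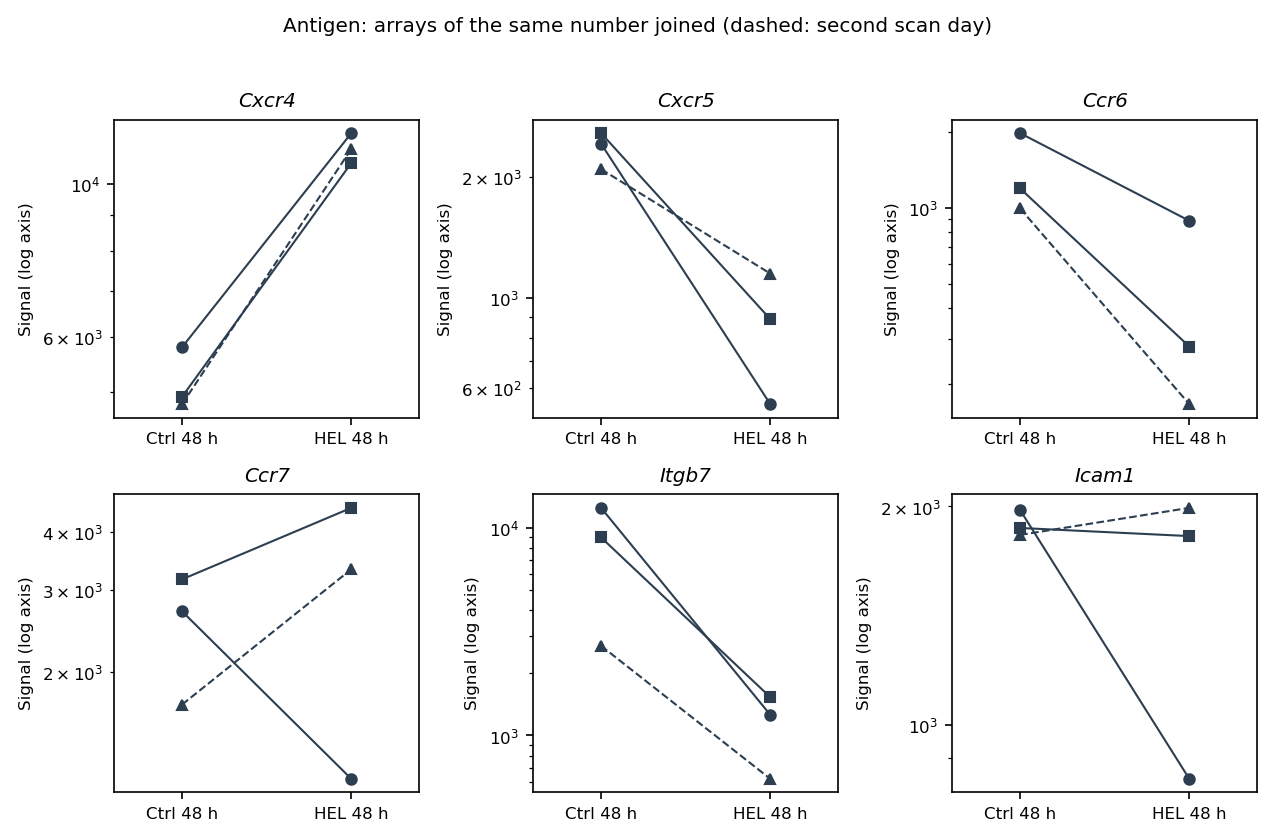
Signal (vertical axis, log axis) of the members in Ctrl 48 h and HEL 48 h arrays, with arrays of the same number joined and the second scan day dashed; Itgb7 is shown by the probe set shared with U74Av2. All 3 pairs rise for Cxcr4 and fall for Cxcr5, Ccr6 and Itgb7, and they cross for Ccr7 and Icam1.

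HEL-Mhi cells gave 3170.6, 2618.9 and 2249.9 for Cxcr4, 1370.9, 1607.7 and 1834 for Cxcr5 and 640.6, 668.5 and 542.9 for Ccr6. Ccr7 was 1589.3, 1950.2 and 2524.9, Itgb7 (shared probe set) 6159.1, 7318.5 and 10560.9, and Icam1 917, 816.6 and 948. Whether these are on one scale with the 48 h arrays is not stated, and no comparison was made. The HEL-Mlo signals, whose scaling is not given either, were 104 to 195.1 for Cxcr4, 33.42 to 69.66 for Cxcr5, 8.656 to 34.65 for Ccr6, 31.02 to 54.17 for Ccr7, 79.16 to 101.8 for Itgb7 (shared probe set) and 24.03 to 47.77 for Icam1. Array medians of that group were 21.6 to 26.2, so these values can be read within an array only.

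Seen over the 8 comparisons, each of which may share arrays with another, the members differed in how often and which way they were called. Over all probe sets, between 0.02% and 14.2% were called in a comparison and between 3.91% and 29.3% did not overlap. Itgb7 was called in 4, always lower, and by the probe set present on both arrays was lower without overlap in all 7 comparisons other than Cre-Mhi with Ctrl-Mhi. The second probe set, tested with HEL alone, overlapped. Cxcr5 was called lower in 3 and lay lower without overlap in 5 of those 7. Icam1 was called lower in 3 and Ccr6 in 1. Cxcr4 and Ccr7 were each called in 2, always higher. Cxcr4 was higher without overlap in 4 of the 7, whereas Ccr7 was so in 2 and lower without overlap in 1, that of B6-M- cells.

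**Figure D5:**
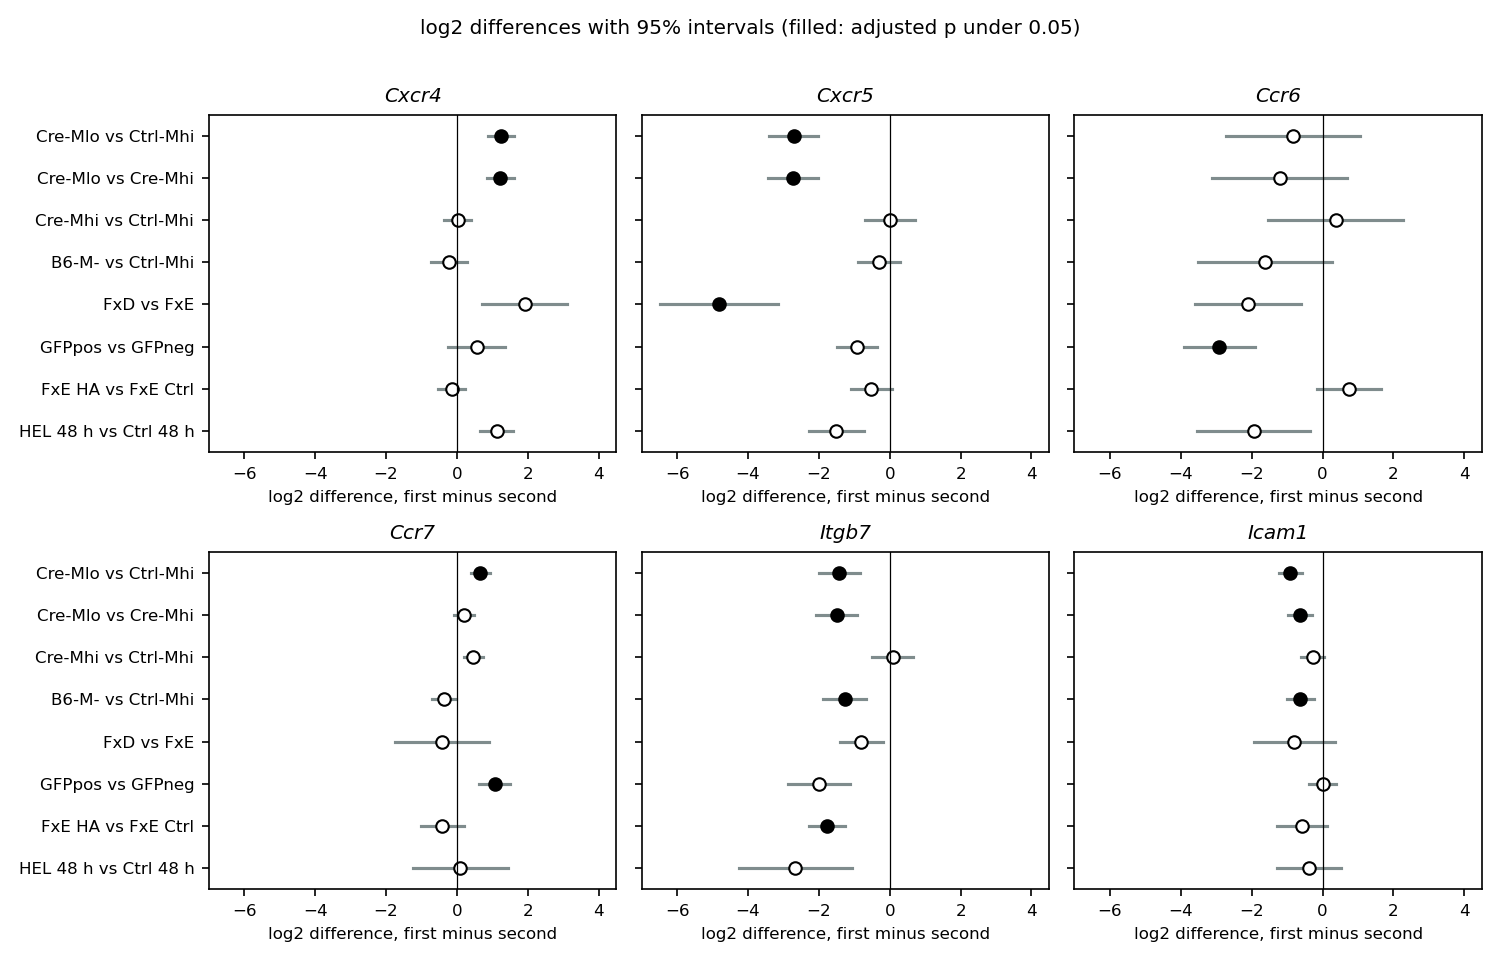
Log2 difference (horizontal axis, first group minus second) of each member in the 8 comparisons (vertical axis), with 95% intervals; filled points passed adjusted p under 0.05, and Itgb7 in the HEL comparison is the probe set shared with U74Av2. Points of Itgb7 and Cxcr5 lie at or below 0 except in Cre-Mhi against Ctrl-Mhi cells, and those of Ccr6 have the widest intervals in the deletion groups.

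The effect of deletion was also set against those of the drug and of the pre-B stage. The GFPpos effect minus the Cre-Mlo effect (against Ctrl-Mhi) was called for none of the 6 members (limma; 0.381% of all probe sets, and 1 member, Icam1, with signals raised to at least 100, adjusted p = 0.0439). For Icam1 it was 0.91 (SE 0.21, 95% CI 0.45 to 1.37, adjusted p = 0.104) and for Cxcr5 1.78 (SE 0.49, 95% CI 0.72 to 2.85, adjusted p = 0.152). The FxD effect minus the Cre-Mlo effect was likewise called for no member (limma; 3.64% of all probe sets). For Cxcr5, where it was -2.11 (SE 0.77, adjusted p = 0.201), it was called with all 37 arrays (adjusted p = 0.0237).

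Few other receptor genes were called. Of 25 other chemokine and homing receptor genes measured, none was called in Cre-Mlo against Ctrl-Mhi cells, and of 25 chemokine genes none was called in any of these comparisons. Against Cre-Mhi cells 1 receptor gene rose, Ccrl2 (log2 0.65, adjusted p = 0.0305). Cnr2, a cannabinoid receptor of B cells, fell in B6-M- against Ctrl-Mhi cells (log2 -3.38, adjusted p = 0.00141) and in FxE HA against FxE Ctrl cells (log2 -2.44, adjusted p = 0.0156). In the remaining comparisons none of the 25 receptors was called.

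Of 17 integrin chain genes, 1 rose and 2 fell in Cre-Mlo against Ctrl-Mhi cells. Itgb1, the β1 chain, rose from 3036 ± 243 to 4438 ± 142 (log2 0.55, adjusted p = 0.00946). Itgal and Itgb2, which together form LFA-1, the receptor of ICAM-1, both fell, Itgal from 1098 ± 270 to 354 ± 83.3 (log2 -1.63, adjusted p = 0.012) and Itgb2 from 1666 ± 273 to 1057 ± 114 (log2 -0.65, adjusted p = 0.0215). Itga4, the α4 partner of β7, was 1051 ± 124 and 1079 ± 262 (log2 0.01, adjusted p = 0.983; chosen after its values were seen). In B6-M- cells Itgal (log2 -2.25, adjusted p = 0.00549) and Itga4 (log2 -0.62, adjusted p = 0.0473) fell, and against Cre-Mhi cells Itgb1 rose in Cre-Mlo cells (log2 0.43, adjusted p = 0.0413). No integrin gene of this list was called with either drug pair, in FxD against FxE cells or with HEL.

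Of 30 other adhesion genes, 2 rose and 4 fell in Cre-Mlo against Ctrl-Mhi cells. The sialic-acid-binding inhibitory receptor gene Cd22 (log2 -2.10, adjusted p = 2.55e-05) and the tetraspanin gene Cd82 (log2 -0.92, adjusted p = 0.00184) fell, and Bst1 (log2 0.82, adjusted p = 0.00243), which encodes a stromal and precursor cell surface enzyme, and Adgre5 (log2 0.76, adjusted p = 0.0288), which encodes the adhesion receptor CD97, rose. Cd22 also fell in B6-M- cells (log2 -2.33, adjusted p = 0.000462), in FxD against FxE cells (log2 -2.18, adjusted p = 0.0186) and in FxE HA cells (log2 -1.48, adjusted p = 0.0217), and against Cre-Mhi cells (log2 -2.21, adjusted p = 1.99e-05), where Cd82 (log2 -0.58, adjusted p = 0.0309) fell too and Bst1 (log2 0.88, adjusted p = 0.00206) and Adgre5 (log2 0.72, adjusted p = 0.0464) rose. In B6-M- cells 3 of the list rose and 5 fell. The tetraspanin gene Cd9 (log2 2.32, adjusted p = 0.00141) and Bst1 (log2 1.10, adjusted p = 0.0144) led those that rose, and Icam2, which encodes another ligand of LFA-1, fell (log2 -1.01, adjusted p = 0.0057). Cdh5, the gene of VE-cadherin, was the 1 gene called in GFPpos cells, where it fell (log2 -3.21, adjusted p = 0.0185). Its signal was low in the deletion groups, at 34.8 ± 13.6 in Cre-Mlo and 174 ± 70.8 in Ctrl-Mhi cells, so the size of its fold is uncertain. Cd2, an adhesion receptor gene, rose in FxE HA cells (log2 0.95, adjusted p = 0.04).

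Of 37 genes of receptor signalling and movement downstream, 1 rose and 9 fell in Cre-Mlo against Ctrl-Mhi cells. Rgs14, a regulator that shuts off G proteins (log2 -1.90, adjusted p = 2.4e-06), and Grk6, a kinase that desensitizes chemokine receptors (log2 -1.45, adjusted p = 1.22e-05), fell. Against Cre-Mhi cells, 1 rose and 6 fell, with Rgs14 (log2 -1.58, adjusted p = 1.32e-05) and Grk6 (log2 -1.20, adjusted p = 5.88e-05) first. In B6-M- cells 9 fell and none rose, among them Ptk2b, which encodes a kinase related to focal adhesion kinase (log2 -1.72, adjusted p = 0.00134). In GFPpos cells 2 rose and 3 fell, and Rgs2, another regulator of G proteins, was among those that rose (log2 1.55, adjusted p = 0.0428). Rgs14 fell also in B6-M- (log2 -1.81, adjusted p = 0.000615), GFPpos (log2 -1.76, adjusted p = 0.0286) and FxE HA cells (log2 -1.72, adjusted p = 0.00449). Vcl, which encodes vinculin, a link of integrins to actin, fell in Cre-Mlo cells against Ctrl-Mhi (log2 -2.67, adjusted p = 1.24e-05) and Cre-Mhi cells (log2 -1.78, adjusted p = 0.000331) and in B6-M- cells (log2 -0.98, adjusted p = 0.024). It fell also in FxD (log2 -3.03, adjusted p = 0.0237), GFPpos (log2 -1.34, adjusted p = 0.0238) and FxE HA cells (log2 -1.93, adjusted p = 0.00106) and with HEL (log2 -1.84, adjusted p = 0.0393), the only gene of the receptor, chemokine, integrin, adhesion and signalling lists called with antigen.

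The genes whose group means followed those of a member most closely were sought among 3292 probe sets over the 10 U74Av2 groups. Pearson's r of log2 means was 0.953 for Cxcr4 with Cerk, 0.863 for Cxcr5 with Hhex, 0.925 for Ccr6 with Dguok, 0.952 for Ccr7 with Ddx5, 0.954 for Itgb7 with Sipa1 and 0.980 for Icam1 with Mef2c. The next were Ulk2 and 4833420G17Rik for Cxcr4, Prr5 and E2f5 for Cxcr5, Slpi and Gnas for Ccr6, Baz2a and Lmbr1l for Ccr7, Pirb and Lat2 for Itgb7 and Atp2a3 and Taok3 for Icam1, with r from 0.818 to 0.979. Among the members the highest r was 0.73, between Cxcr4 and Ccr7, and the lowest -0.63, between Cxcr4 and Ccr6 (n = 10 groups). These are descriptions over groups that share strains, cultures and RNA amplification.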

How the data were processed

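RNA of sorted mouse B lineage cells was hybridized to Affymetrix U74Av2 (37 arrays) and U74A (12 arrays) chips. The deposited values are hybridization intensities (signals) per probe set on the linear scale, which the authors calculated with Microarray Suite 5.0 (MAS5) and scaled to 1500 units for each array after a mask. For HEL 48 h and Ctrl 48 h arrays neither target nor mask is given in the sources used here, and for HEL-Mlo no scaling. The tables were normalized separately, so that each test stayed within 1 table. Groups came from the labels, and hours of FxE Ctrl and FxE HA from a figure legend by replicate number.

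Detection p-values were not used here. Signals under 20 were raised to 20 and log-transformed. Linear models were run in limma (version 3.58.1, R 4.3.3, with eBayes moderation, two-sided). P-values were adjusted by Benjamini-Hochberg across the whole table, and calls were made at an adjusted p under 0.05. The 3 deletion groups shared a fit, FxE HA with FxE Ctrl had hours as a factor, and other pairs had a fit each. Differences between effects were contrasts in a joint fit. The 66 control probe sets of U74A were left out, and 2611 others are blank for HEL-Mhi. The procedure was tested on simulated data. Of the probe sets, 8724 on U74Av2 and 10276 on U74A match 1 gene. The members and gene lists were chosen with earlier results of these data known. Of each list, up to 2 called genes in each direction with the smallest adjusted p are named, and 1 gene of the signalling list is counted but not reported by name here. Vcl, named by this rule in some comparisons, is also given in the others where it was called. Likeness was searched among probe sets with a mean signal of at least 500 and group means spanning at least 1 in log2.

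Alternatives were a floor of 100, a minimum mean signal of 200, quantile normalization, all groups in 1 fit, the methods' t-test, the replicate number or scan day as a block, no hours, each array left out and, added after seeing the data, each hour alone. Correlations of the deviations of arrays with the same number were 0.20, 0.18, 0.28 and 0.47 for Cre-Mlo with Cre-Mhi, and 0.24, 0.22 and 0.11 for HEL 48 h with Ctrl 48 h, over probe sets with a mean signal of at least 500. Only in those comparisons were same-numbered arrays regarded as paired, and the main fits left the pairing out. With the replicate number as a block in limma, adjusted p in Cre-Mlo against Cre-Mhi was 0.0141 for Cxcr4, 0.00275 for Cxcr5 and 0.0152 for Itgb7. With HEL it was 0.292 for Cxcr4.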

Additional observations from a re-analysis of the deposited data

Results flagged for a closer look

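Ccr6 on Cre-Mlo array 4 had a signal of 378.5, far above the other 3 arrays of its group, which gave 105, 65.9 and 107.3. It was the 1 gap of this kind among 30 combinations of a gene and a group of 4 or more arrays, and chance flags about 1 in 20 groups. The Ccr6 difference between Cre-Mlo and Ctrl-Mhi cells was not called with this array or without it.

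The herbimycin A effect on Ccr6 differed between cell kinds, by 3.69 on the log2 scale (FxE HA effect minus GFPpos effect; limma adjusted p = 0.0232). It was lower on 3 of 3 GFPpos arrays than on any GFPneg array, while FxE HA and FxE Ctrl arrays overlapped.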

How the results depend on the processing

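Values of single members kept direction and side of the threshold in 1091 of 1207 alternatives, while 63 lost a call, 18 gained one and 35 changed sign. Quantile normalization left the number of members called as it was in each comparison. With the methods' t-test at their criteria, members called were 2 in Cre-Mlo against Ctrl-Mhi (Itgb7, Ccr7 and Icam1 were lost), 0 in B6-M- against Ctrl-Mhi, 2 in FxD against FxE and 2 in HEL 48 h against Ctrl 48 h. After Benjamini-Hochberg they were 3 in Cre-Mlo against Ctrl-Mhi (Itgb7 and Cxcr5 were lost), 2 in Cre-Mlo against Cre-Mhi (Itgb7 and Icam1 were lost) and 0 in B6-M-, FxD and GFPpos. With all 37 arrays they were 1 in B6-M- and 2 in FxD, 1 for the FxD effect minus the Cre-Mlo effect and 2 for the FxE HA effect minus the GFPpos effect. A minimum mean signal of 200 gave 2 in FxD, 4 in GFPpos and 2 for the FxE HA minus GFPpos effect, and a floor of 100 gave 1 with HEL, 1 for the GFPpos minus Cre-Mlo effect and 2 for FxE HA minus GFPpos. On arrays of 24 h alone, 0 were called in FxE HA. The causes were not tested.

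With the replicate number as a block, members called were 5 in Cre-Mlo against Ctrl-Mhi, 4 against Cre-Mhi, 0 in B6-M-, 0 in FxD, 0 in GFPpos and 0 in FxE HA, and Ccr7 and Cxcr5 turned to 0.0876 and 0.0673 in FxE HA, where numbers are not known to pair the arrays and the block leaves out those without a partner. The block changed no member's call in Cre-Mlo against Cre-Mhi or with HEL, where numbers paired the arrays. By the t-test, Cxcr5 in Cre-Mhi against Ctrl-Mhi was -0.026 and Icam1 in GFPpos -0.0037.

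Leaving out each array gave 0 to 2 members called in B6-M-, 0 to 1 in FxD, 0 in GFPpos, 0 to 1 for the FxD minus Cre-Mlo effect and 0 to 2 for FxE HA minus GFPpos. Signs turned in Cre-Mhi against Ctrl-Mhi for Itgb7 (-0.059 to 0.25), Cxcr4 (-0.077 to 0.17), Cxcr5 (-0.18 to 0.13) and Ccr6 (-0.10 to 0.85), in FxD for Ccr7 (-0.83 to 0.20), in GFPpos for Icam1 (-0.067 to 0.11), and with HEL for the second Itgb7 probe set (-0.53 to 0.028), Ccr7 (-0.30 to 0.67) and Icam1 (-0.61 to 0.011). They turned also for Icam1 in the FxD minus Cre-Mlo effect (-0.13 to 0.57), Itgb7 in FxE HA minus GFPpos (-0.16 to 0.50), and Icam1 (-0.55 to 0.022) and Ccr6 (-0.028 to 1.06) in the drug effect at 48 h minus 24 h. None of these was called. Signals close to the floor, as for Ccr6 in B6-M-, Cre-Mlo and GFPpos cells and for Cxcr5 in FxD cells, limit what a fold can show.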

Other observations

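Within the Ctrl-Mhi group, arrays 1 and 3 differed from arrays 2 and 4 in several members, a split chosen after the values were seen and not tested. Ccr6 was 97.6 and 86 on arrays 1 and 3 and 619.9 and 544.8 on arrays 2 and 4. Cxcr5 (1499.9 and 1032.1 against 1967.3 and 1874.9) and Itgb7 (1833.5 and 1599.6 against 3057.4 and 2315.8) were lower on the same arrays, and Cxcr4 (5256.4 and 6899.9 against 4140.7 and 4401.7) was higher. In Cre-Mhi cells, Ccr6 was 661.2 and 645.7 on arrays 1 and 3 and 155.2 and 120.2 on arrays 2 and 4.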
